A study of Mus musculus with 24 samples.

Results

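The 10 genes described here, Hk1, Hk2, Gpi1, Pfkl, Aldoa, Aldoc, Pgk1, Eno1, Pkm and Ldha, encode enzymes of glycolysis, and they are 10 of the 48526 genes counted in RNA-seq libraries of mouse renal cortex. They were taken by symbol from a list of named enzymes, chosen with earlier results of these data known, and all 10 passed the filter on low counts. Glycolysis turns glucose into pyruvate in the cytosol. Hexokinase traps glucose in the cell, phosphofructokinase commits it to the pathway, aldolase splits the sugar, and pyruvate kinase and lactate dehydrogenase act at the end. In the kidney the proximal tubule is known for making glucose and for burning fatty acids, whereas more distal nephron segments rely more on glycolysis.

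The 24 libraries form 4 groups of 6, all from C57BL/6 mice treated from 6 weeks of age and followed for 24 weeks. The diabetic PMX-53 group received 5 daily injections of 55 mg/kg streptozotocin, which destroys insulin-producing beta cells, and then 2 mg/kg PMX-53 in the drinking water. The diabetic vehicle group received the same streptozotocin and drinking water alone. The non-diabetic PMX-53 group received 0.5 M sodium citrate in place of streptozotocin, with the same PMX-53, and the non-diabetic vehicle group received citrate and drinking water alone. PMX-53 is a cyclic peptide inhibitor of C5aR1, a receptor for the complement fragment C5a, so that the design asks how diabetes, the inhibitor and their combination alter cortical gene expression. The labels name the libraries as separate replicates but do not tie them to animals, so the p-values speak only of the spread among these libraries, which may in part be technical. The labels give the strain without a substrain.

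Library totals ran between 10964992 and 22000895 counts. The 9 proximal tubule S1-S2 markers summed to between 11803 and 18519.7 CPM (normalized counts scaled for library size) in a library, with no marker at 0 throughout. They do not tell cortex from whole kidney. Medulla and papilla markers summed to 179 to 327 CPM in the diabetic PMX-53 libraries and 323 to 593 CPM in the diabetic vehicle libraries. They summed to 245 to 427 CPM in the non-diabetic PMX-53 libraries and 241 to 476 CPM in the non-diabetic vehicle libraries. The medulla markers were tested gene by gene, with counts given below, but a difference in medulla content between groups was not tested. The 6 diabetic vehicle libraries stood apart from the other 18 in genes with no stated link to the design. Nnt, a mitochondrial transhydrogenase, was at 242 to 272 CPM in the diabetic vehicle libraries and at 101.01 to 121 CPM in the other 18. Ide, a protease that degrades insulin, was at 62.2 to 76.5 CPM in the diabetic vehicle libraries, against 111 to 169 CPM elsewhere, and Wdfy1 at 66.6 to 79.6 CPM, against 26.1 to 33.2 CPM. Diabetic vehicle replicate 4 also differed from the other 5 libraries of its group, with 29.5 CPM of complement C3 against 164 to 537 CPM and 5556 CPM of Kap against 145 to 1007 CPM. The 18 libraries of the other groups held 9.38 to 59.7 CPM of C3 and 4060 to 10875 CPM of Kap. Replicate 4 lay within these ranges and the other 5 lay outside them. Mitochondrially encoded genes, their ribosomal RNA included, took 25.8% ± 2.56 of counts in the diabetic PMX-53 group, 29.5% ± 2.14 in the diabetic vehicle group, 22.9% ± 1.51 in the non-diabetic PMX-53 group and 22.6% ± 1.65 in the non-diabetic vehicle group (SD, n = 6 each). With ribosomal RNA genes left out of both parts, these shares were 5.26% ± 0.856, 6.24% ± 0.418, 4.78% ± 0.549 and 4.66% ± 0.565 in the same order. The labels give 1 strain for all 24 libraries and no source of the mice by group, so a different source of the diabetic vehicle mice cannot be told apart from their diabetes or treatment. For the 10 genes, results that compare the diabetic vehicle libraries are therefore given beside those that do not, and without replicate 4. For the wider gene lists, counts are given with and without the diabetic vehicle group.

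Levels are CPM after TMM normalization, which aligns the bulk of genes between libraries, and between genes they are compared per kilobase of annotated exon. On that scale Aldoa, the muscle-type aldolase that is also made in most tissues, led the list in every group, at 176 ± 9.34 CPM per kb in the diabetic PMX-53 group, 189 ± 17.5 in the diabetic vehicle group, 158 ± 6.60 in the non-diabetic PMX-53 group and 154 ± 15.5 in the non-diabetic vehicle group (SD, n = 6 each). Ldha, which interconverts pyruvate and lactate, came next, at 89.8 to 100.6 CPM per kb over the 4 group means. Pgk1, Eno1 and Gpi1 held the next places at group means of 40.1 to 76.3 CPM per kb. Eno1, the enolase of most tissues, was ahead of Pgk1 in both diabetic groups and behind it in both non-diabetic groups, but the ranges of these neighbours overlapped in all 4 groups, and in the diabetic vehicle group those of Ldha and Eno1 overlapped too. Pkm was at 20.2 to 42.6, Hk1 at 7.74 to 11.5, Pfkl at 5.15 to 7.33 and Aldoc at 0.875 to 3.84 CPM per kb over the group means. Hk2 was lowest in every group, at 0.0888 to 0.186 CPM per kb, and rested on 6 to 33 counts a library. Against this low count, Aldoa held 5378 to 13656 counts a library.

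The genes lie apart in the genome (GRCm38). Aldoc is at chr11:78322968-78327781 on the plus strand, Pkm at chr9:59656368-59679375 (plus), Eno1 at chr4:150236721-150248879 (plus) and Hk2 at chr6:82725025-82774454 (minus). Hk1 at chr10:62268855-62379908 and Pfkl at chr10:77986947-78010083 share a chromosome, both on the minus strand. Gpi1 at chr7:34201330-34230336 (minus), Aldoa at chr7:126795234-126800751 (minus) and Ldha at chr7:46841475-46855627 (plus) share another, and Pgk1 is at chrX:106187100-106203699 (plus). All 10 are protein-coding. Hk1, Hk2, Gpi1 and Aldoa overlap a gene on the opposite strand (Hk1os, Gm17034, Gm26762 and Fam57b), and Pkm overlaps Gm49759 on its own strand. Whether the deposited counts used strand is not given in the sources used here, so reads of such partners may not be separable. Related copies that could share reads held few counts: at most 1 in any library for Eno1b and Pgk1-rs7, 2 for Aldoart1, 3 for Gm4735 and 8 for Ldha-ps2.

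The sequences before the starts of the 3 genes with the largest positive differences in diabetes, and of the gene that differed in the opposite direction, are shown because hypoxia-inducible factors, known regulators of glycolysis genes, bind sites with the core ACGTG or GCGTG. Each is the 250 bases before the RefSeq start nearest to the annotated gene start (RefSeq, GRCm38.p6): Aldoc chr11:78322823-78323072 (plus), Pkm chr9:59656326-59656575 (plus), Eno1 chr4:150236458-150236707 (plus) and Hk2 chr6:82774455-82774704 (minus). Capitals mark either core on either strand.
Aldoc: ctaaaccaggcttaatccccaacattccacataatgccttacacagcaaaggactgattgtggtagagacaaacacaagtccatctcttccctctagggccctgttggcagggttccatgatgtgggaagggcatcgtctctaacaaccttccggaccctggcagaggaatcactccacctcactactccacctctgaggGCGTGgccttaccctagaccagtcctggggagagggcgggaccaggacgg
Pkm: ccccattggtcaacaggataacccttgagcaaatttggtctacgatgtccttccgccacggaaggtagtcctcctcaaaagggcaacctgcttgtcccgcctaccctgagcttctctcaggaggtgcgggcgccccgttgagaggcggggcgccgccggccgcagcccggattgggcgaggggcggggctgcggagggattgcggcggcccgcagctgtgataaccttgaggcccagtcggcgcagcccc
Eno1: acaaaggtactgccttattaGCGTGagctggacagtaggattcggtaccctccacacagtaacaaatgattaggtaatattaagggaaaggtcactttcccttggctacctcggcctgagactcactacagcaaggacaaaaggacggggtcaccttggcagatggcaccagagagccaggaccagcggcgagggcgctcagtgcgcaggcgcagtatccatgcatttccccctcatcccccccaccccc
Hk2: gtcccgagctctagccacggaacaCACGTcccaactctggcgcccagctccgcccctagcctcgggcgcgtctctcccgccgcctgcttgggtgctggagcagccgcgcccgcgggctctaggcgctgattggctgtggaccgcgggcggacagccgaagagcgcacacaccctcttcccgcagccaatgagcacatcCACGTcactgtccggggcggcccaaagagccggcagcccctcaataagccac
Aldoc held GCGTG 50 bases before its start and Eno1 held it 230 bases before, Pkm held neither core, and Hk2 held ACGTG on the opposite strand at 226 and 52 bases. Over all 10 genes, 6 windows held at least 1 of the 2 cores (60%), against 38.6% of the 32851 RefSeq windows of this length. The GC box core GGGCGG was in 6 of the 10 (60%), against 32.7% of all windows. The windows of the 10 genes were 49.6% to 69.6% G or C, with a median of 57.4%, against a median of 52.4% over all windows. These matches are letters in a window and do not show that a factor bound there.

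In diabetic mice on vehicle, most of the list was higher than in non-diabetic mice on vehicle. Aldoc was 3.91-fold higher, Pkm 2.11-fold, Eno1 1.76-fold, Hk1 1.49-fold and Pfkl 1.42-fold, and Gpi1, Aldoa and Pgk1 were 1.22-fold to 1.23-fold higher. Hk2 was lower and Ldha did not pass the test. In all, 8 of the 10 rose and 1 fell at an adjusted p under 0.05 (edgeR's quasi-likelihood test, Benjamini-Hochberg adjustment over all genes tested), in a comparison where 40.3% of the 15808 genes tested passed, 20.4% of them higher and 19.9% lower. The 10 had a median log2 fold change of 0.40, against -0.0014 over all genes. This describes the list and is no test of it, because the genes were chosen with earlier results known. For 7 genes (the risers other than Aldoa), every diabetic vehicle library lay above every non-diabetic vehicle library, as did 7.86% of all genes, and none of the 10 lay wholly below (7.02% of all genes). In whole cortex, more RNA per cell and more cells that hold the RNA cannot be told apart.

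**Figure D1:**
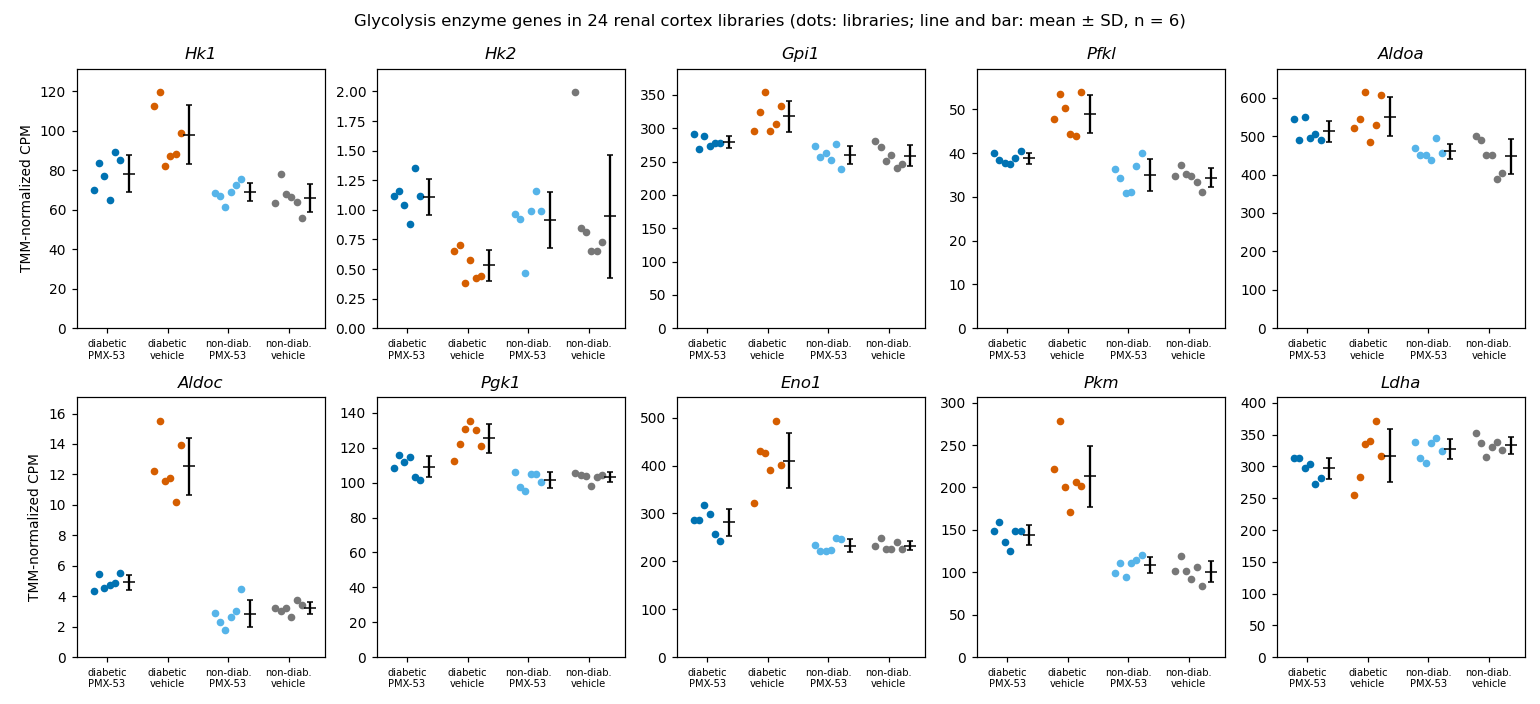
Normalized CPM of the 10 genes, 1 panel a gene with its own axis from 0, in the libraries of the diabetic PMX-53, diabetic vehicle, non-diabetic PMX-53 and non-diabetic vehicle groups; dots are libraries, and the line and bar give mean ± SD (n = 6). Aldoc sits at 10.2 to 15.5 CPM in the diabetic vehicle libraries and at or below 5.51 CPM in the other 18.

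Aldoc, the aldolase named for its abundance in brain, differed most. Its lowest, median and highest libraries held 4.34, 4.81 and 5.51 CPM in the diabetic PMX-53 group, 10.2, 12.0 and 15.5 CPM in the diabetic vehicle group, 1.79, 2.77 and 4.44 CPM in the non-diabetic PMX-53 group and 2.603, 3.22 and 3.75 CPM in the non-diabetic vehicle group. No diabetic vehicle library overlapped any other library. The log2 fold change of diabetes on vehicle was 1.97 ± 0.14 (SE, adjusted p = 8.54e-11), which was larger than that of 99.4% of the genes tested. Aldoa held 489.5, 501 and 549.9 CPM (lowest, median, highest) in the diabetic PMX-53 group, 484, 538 and 615 CPM in the diabetic vehicle group, 439, 455 and 495 CPM in the non-diabetic PMX-53 group and 388, 451 and 502 CPM in the non-diabetic vehicle group. Its groups overlapped, and its log2 fold change of diabetes on vehicle was 0.30 ± 0.07 (SE, adjusted p = 0.00074).

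Pkm encodes the pyruvate kinase of muscle and of many other tissues, in 2 splice forms that gene counts do not separate. Its libraries held 126, 148 and 159 CPM (lowest, median, highest) in the diabetic PMX-53 group, 171, 204 and 278 CPM in the diabetic vehicle group, 94.9, 111 and 120.2 CPM in the non-diabetic PMX-53 group and 84.2, 102 and 119 CPM in the non-diabetic vehicle group. The diabetic PMX-53 libraries lay between the other 3 groups without overlap: above every non-diabetic library and below every diabetic vehicle library. The log2 fold change of diabetes on vehicle was 1.08 ± 0.09 (SE, adjusted p = 2.48e-09). Eno1 was likewise highest in the diabetic vehicle group, with 242, 286 and 318 CPM in the diabetic PMX-53 group, 321, 414 and 493 CPM in the diabetic vehicle group, 221, 229 and 249 CPM in the non-diabetic PMX-53 group and 225, 229 and 248 CPM in the non-diabetic vehicle group. Its lowest diabetic PMX-53 library reached into the non-diabetic range. The log2 fold change of diabetes on vehicle was 0.82 ± 0.08 (SE, adjusted p = 6.59e-09).

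The 2 hexokinases of the list went in opposite directions. Hk1, the hexokinase of most tissues, held 64.9, 80.4 and 89.4 CPM (lowest, median, highest) in the diabetic PMX-53 group, 82.3, 93.5 and 119.6 CPM in the diabetic vehicle group, 61.5, 68.8 and 75.6 CPM in the non-diabetic PMX-53 group and 55.8, 65.4 and 78.0 CPM in the non-diabetic vehicle group. Diabetic vehicle lay wholly above both non-diabetic groups and overlapped diabetic PMX-53, with a log2 fold change of diabetes on vehicle of 0.57 ± 0.09 (SE, adjusted p = 1.98e-05). Hk2, the insulin-regulated hexokinase of muscle and fat, held 0.882, 1.12 and 1.35 CPM in the diabetic PMX-53 group, 0.381, 0.509 and 0.700 CPM in the diabetic vehicle group, 0.463, 0.978 and 1.16 CPM in the non-diabetic PMX-53 group and 0.650, 0.768 and 1.99 CPM in the non-diabetic vehicle group. The 1.99 CPM library is non-diabetic vehicle replicate 1, and the diabetic vehicle libraries overlapped both non-diabetic groups and lay below every diabetic PMX-53 library. The log2 fold change of diabetes on vehicle was -0.86 ± 0.28 (SE, adjusted p = 0.0145). Without that library it was -0.48 and the call was lost (adjusted p = 0.146), as it was with limma voom weights (-0.69, adjusted p = 0.0538).

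Pfkl, the liver-type phosphofructokinase, held 37.5, 38.6 and 40.4 CPM (lowest, median, highest) in the diabetic PMX-53 group, 43.8, 49.0 and 53.9 CPM in the diabetic vehicle group, 30.9, 35.2 and 40.1 CPM in the non-diabetic PMX-53 group and 31.1, 34.7 and 37.3 CPM in the non-diabetic vehicle group. Every diabetic vehicle library was above every other library, with a log2 fold change of diabetes on vehicle of 0.51 ± 0.06 (SE, adjusted p = 4.85e-07). Gpi1, which isomerizes glucose 6-phosphate to fructose 6-phosphate, held 268, 278 and 291 CPM in the diabetic PMX-53 group, 295, 315 and 354 CPM in the diabetic vehicle group, 238, 260.3 and 276 CPM in the non-diabetic PMX-53 group and 241, 256 and 281 CPM in the non-diabetic vehicle group. The diabetic vehicle libraries were again the highest, by 0.30 ± 0.05 on the log2 scale over non-diabetic vehicle (SE, adjusted p = 6.77e-05). Pgk1, which makes ATP from 1,3-bisphosphoglycerate, held 101.3, 110.1 and 116 CPM in the diabetic PMX-53 group, 113, 126 and 135 CPM in the diabetic vehicle group, 95.2, 103 and 106 CPM in the non-diabetic PMX-53 group and 97.8, 104 and 105 CPM in the non-diabetic vehicle group. Diabetic vehicle lay above both non-diabetic groups and overlapped diabetic PMX-53 by its lowest library, and the log2 fold change over non-diabetic vehicle was 0.28 ± 0.05 (SE, adjusted p = 3.24e-05).

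Ldha was the gene of the list that passed in none of the comparisons when all 4 groups were fitted together. Its libraries held 273, 301 and 314 CPM (lowest, median, highest) in the diabetic PMX-53 group, 256, 326 and 371 CPM in the diabetic vehicle group, 305, 329.9 and 345 CPM in the non-diabetic PMX-53 group and 314, 333 and 353 CPM in the non-diabetic vehicle group. Diabetic vehicle had the widest range, with both the lowest and the highest library. The log2 fold change of diabetes on vehicle was -0.07 ± 0.07 (SE, adjusted p = 0.416), with a 95% interval of -0.21 to 0.07. Diabetes with PMX-53 against neither gave Ldha -0.16 (adjusted p = 0.0973), which passed as lower when only the 2 groups compared were fitted (-0.16, adjusted p = 0.0488).

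PMX-53 in diabetic mice was set against diabetic mice on vehicle, which are the same 6 vehicle libraries as above, so opposite signs in the 2 comparisons are not independent. Aldoc was 2.57-fold lower with PMX-53, Pkm 1.48-fold lower, Eno1 1.46-fold lower, and Pfkl and Hk1 1.263-fold and 1.253-fold lower. Pgk1 and Gpi1 were 1.15-fold and 1.14-fold lower, and Hk2 was 2.09-fold higher. Of the 10 genes, 7 fell and 1 rose, where 27.3% of all genes tested passed, 13.5% lower and 13.9% higher. The median log2 fold change of the 10 was -0.26, against 0.0033 over all genes, again as a description of a list chosen with earlier results known.

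The fall was -1.36 ± 0.13 on the log2 scale for Aldoc (SE, adjusted p = 8.03e-08), -0.56 ± 0.09 for Pkm (adjusted p = 5.86e-05) and -0.54 ± 0.08 for Eno1 (adjusted p = 9.17e-06). It was -0.34 ± 0.06 for Pfkl (SE, adjusted p = 0.000252), -0.33 ± 0.09 for Hk1 (adjusted p = 0.00873), -0.20 ± 0.05 for Pgk1 (adjusted p = 0.00236) and -0.19 ± 0.05 for Gpi1 (adjusted p = 0.00941). For Aldoc, Pkm, Eno1, Pfkl and Gpi1, all 6 PMX-53 libraries were below all 6 vehicle libraries, as were those of 4.29% of all genes. Hk2 rose by 1.06 ± 0.27 on the log2 scale (SE, adjusted p = 0.00447), also without overlap (3.92% of all genes did so in that direction). Aldoa had a log2 fold change of -0.10 ± 0.07 (SE, adjusted p = 0.268) and Ldha one of -0.09 ± 0.07 (adjusted p = 0.320), and both were slightly positive, at 0.01 and 0.02, with library totals as the scaling. Under that scaling Hk1 (-0.20, adjusted p = 0.125), Gpi1 (-0.07, adjusted p = 0.396) and Pgk1 (-0.08, adjusted p = 0.421) also lost their calls, while the median of all genes moved up by 0.12.

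**Figure D2:**
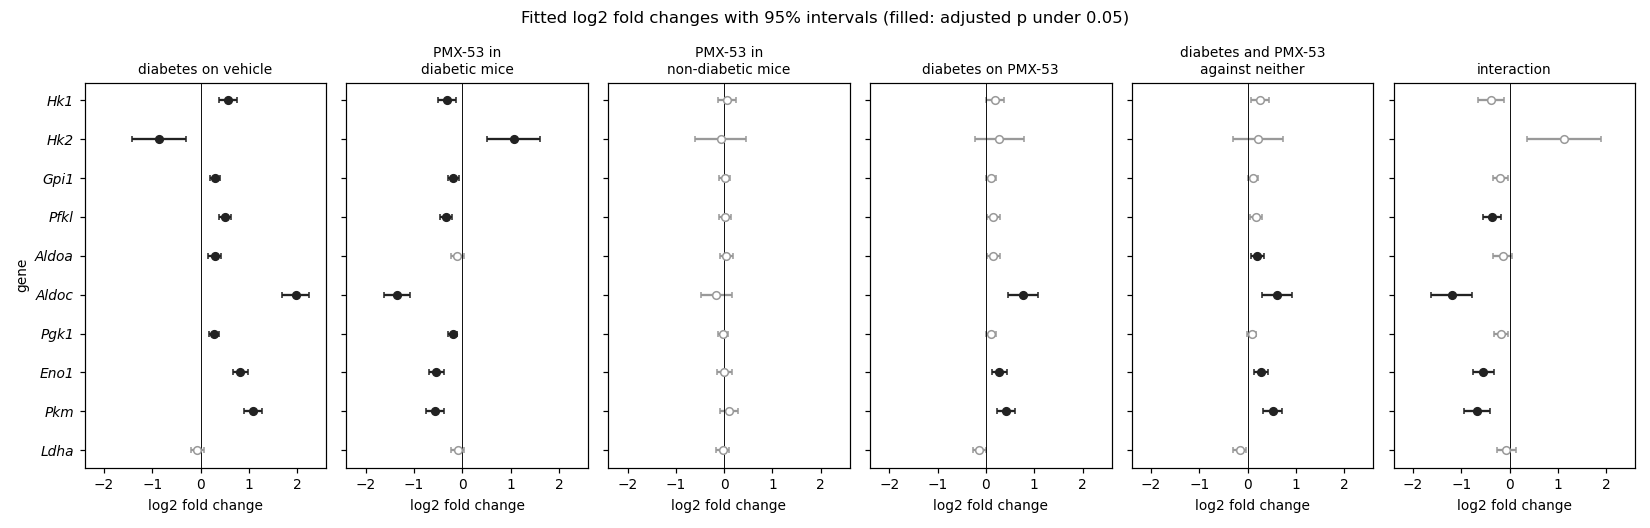
Fitted log2 fold changes of the 10 genes (points) with 95% intervals (bars) in 6 comparisons, 1 panel each; filled points passed at an adjusted p under 0.05. Aldoc has the largest positive value for diabetes on vehicle, 1.97, and the largest negative value for PMX-53 in diabetic mice, -1.36, and no point is filled for the inhibitor in non-diabetic mice.

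PMX-53 in non-diabetic mice moved none of the 10 genes past the threshold. The log2 fold changes lay between -0.16 (Aldoc, 95% interval -0.49 to 0.16) and 0.10 (Pkm, 95% interval -0.08 to 0.29), with 5 positive and 5 negative. Of all genes tested 0 passed (0%) with edgeR, 0 with DESeq2 and 0 with limma voom, and 1142 had an unadjusted p under 0.05, none of them among the 10. For Eno1 the interval was -0.16 to 0.15 and for Pgk1 -0.12 to 0.07, both with upper bounds below the fold change of diabetes on vehicle. Hk2 had the widest interval, -0.60 to 0.45.

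The difference between the effect of PMX-53 in diabetic and in non-diabetic mice was tested by the interaction term, which 9.42% of all genes passed (4.66% positive and 4.76% negative). It passed for 4 of the 10 genes, all negative: Aldoc at -1.20 ± 0.21 (SE, adjusted p = 0.000753), Pkm at -0.67 ± 0.13 (adjusted p = 0.00189), Eno1 at -0.54 ± 0.11 (adjusted p = 0.002) and Pfkl at -0.36 ± 0.09 (adjusted p = 0.0124). For these 4 the fitted effect of the inhibitor differed between diabetic and non-diabetic mice at this threshold. The term uses the diabetic vehicle libraries, which stood apart in Nnt, Ide and Wdfy1. A different source of those mice cannot be told apart from their diabetes or treatment. Hk2 had 1.14 ± 0.37 (SE, adjusted p = 0.0522) and Hk1 -0.39 ± 0.13 (adjusted p = 0.0557), both short of the threshold. Without diabetic vehicle replicate 4 they passed, with 1.16 (adjusted p = 0.0458) and -0.42 (adjusted p = 0.0312). Over the 24 runs that left out 1 library, Hk2 passed in 3 and Hk1 in 6. Each also passed in 3 of 8 other settings. Pfkl lost its call with library totals as the scaling (-0.25, adjusted p = 0.156), where 1 of the 10 passed as positive and 3 as negative.

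Aldoc, Pkm and Eno1 also rose in the 2 comparisons that do not set the diabetic vehicle group against another. Filter, scaling and spread still came from all 4 groups. With only the compared groups fitted, 2009 genes and 3 of the 10 passed for diabetes on PMX-53. For diabetes with PMX-53 against neither, 2364 genes and 5 of the 10 then passed. These fits filtered genes on their own libraries, so the counts are not shares of the 15808 genes. Both comparisons share the 6 diabetic PMX-53 libraries and are not independent, and the second combines diabetes and the inhibitor. In diabetic mice on PMX-53 against non-diabetic mice on PMX-53, where 10% of all genes passed (5.52% higher and 4.52% lower), Aldoc rose by 0.77 ± 0.15 on the log2 scale (SE, adjusted p = 0.00143), Pkm by 0.41 ± 0.09 (adjusted p = 0.00481) and Eno1 by 0.28 ± 0.08 (adjusted p = 0.0187). The other 7 did not pass, with log2 fold changes of -0.14 (Ldha) to 0.28 (Hk2). Pkm was the gene of the 10 whose libraries did not overlap (2.97% of all genes did not overlap in this direction and 3.03% in the other), and Eno1 lost its call without diabetic PMX-53 replicate 3 (0.24, adjusted p = 0.0507). In diabetic mice on PMX-53 against non-diabetic mice on vehicle, where 14.9% of all genes passed (7.98% higher and 6.97% lower), Aldoc rose by 0.61 ± 0.15 (SE, adjusted p = 0.00645), Pkm by 0.51 ± 0.09 (adjusted p = 0.000421), Eno1 by 0.27 ± 0.08 (adjusted p = 0.0134) and Aldoa by 0.20 ± 0.07 (adjusted p = 0.0444). Aldoc, Pfkl and Pkm did not overlap upwards in it and Ldha did not overlap downwards (3.83% and 3.52% of all genes), although Pfkl (0.17, adjusted p = 0.0677) and Ldha (-0.16, adjusted p = 0.0973) did not pass. The Aldoa call was lost when any of 8 of the 12 libraries was left out. Leaving out diabetic vehicle replicate 4 changed none of the 10 calls of diabetes on vehicle or of PMX-53 in diabetic mice: Aldoc was then at 1.99 and -1.38, Pkm at 1.13 and -0.62 and Eno1 at 0.83 and -0.56.

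As a share of counts outside mitochondrial and ribosomal RNA genes, the 10 genes together took 0.231% to 0.250% in the diabetic PMX-53 libraries, 0.260% to 0.305% in the diabetic vehicle libraries, 0.198% to 0.224% in the non-diabetic PMX-53 libraries and 0.198% to 0.216% in the non-diabetic vehicle libraries. The 2 diabetic groups overlapped neither each other nor the non-diabetic groups on this share. The spread between libraries was largest for Hk2 in 3 of the 4 groups, with a coefficient of variation of 13.7% in the diabetic PMX-53 group, 24.7% in the diabetic vehicle group and 54.9% in the non-diabetic vehicle group. The median coefficient of variation of the 10 was 6.91% in the diabetic PMX-53 group, 13.5% in the diabetic vehicle group, 6.26% in the non-diabetic PMX-53 group and 8.05% in the non-diabetic vehicle group.

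Most steps of the pathway have several isozymes, and by CPM per kb the genes of the list were not always the main ones in cortex. Ldhb, the heart-type lactate dehydrogenase subunit, made up 77.7% to 82.1% of the Ldha and Ldhb level over the group means. Hk1 made up 90.1% to 93.6% of the hexokinase level and Eno1 94.7% to 95.8% of the enolase level. Pkm made up 68.8% to 75.2% of the pyruvate kinase level and Pfkl 28.1% to 32.5% of the phosphofructokinase level. The order within phosphofructokinase depended on exon length. In plain CPM, Pfkl, Pfkm and Pfkp averaged 48.9, 38.9 and 47.4 in diabetic vehicle and 34.4, 32.8 and 25.3 in non-diabetic vehicle. Pfkm led Pfkl in diabetic PMX-53 (42.1 against 38.8) and non-diabetic PMX-53 (35.8 against 34.9). Ldhb was above Ldha in mean CPM in every group (553 to 647 against 297 to 333).

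**Figure D3:**
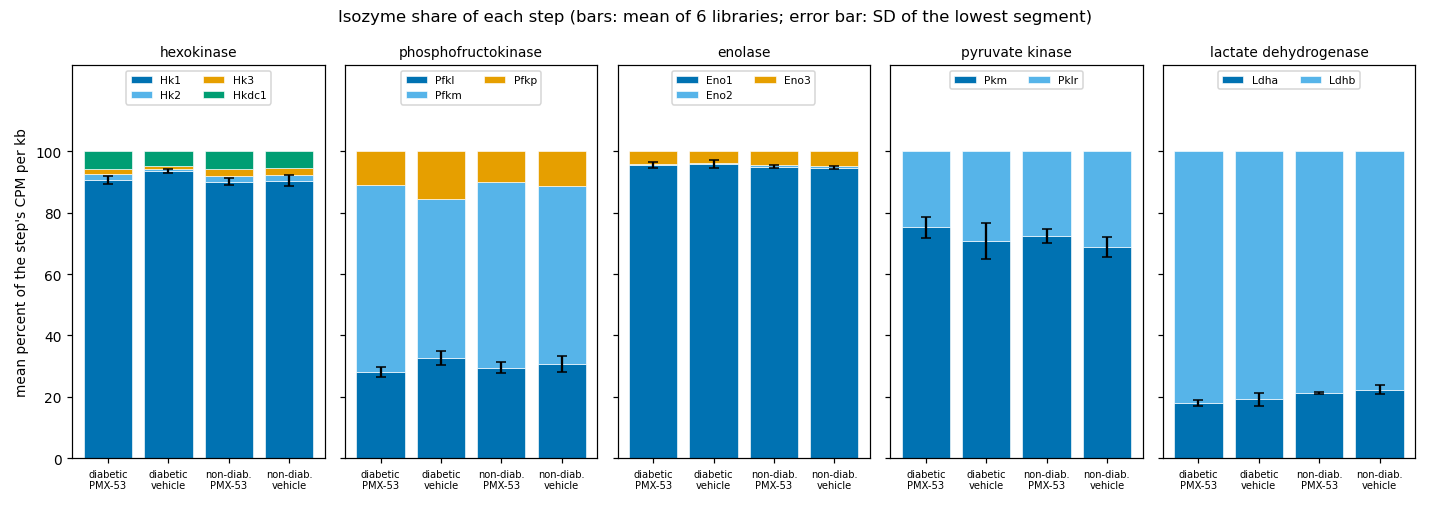
Mean percent of each step's summed CPM per kb held by each isozyme gene (stacked bars, from 0), in the diabetic PMX-53, diabetic vehicle, non-diabetic PMX-53 and non-diabetic vehicle groups (n = 6 each); the error bar is the SD of the lowest segment. Ldhb takes 77.7% to 82.1% of the lactate dehydrogenase bars and Hk1 90.1% to 93.6% of the hexokinase bars.

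The ratio of isozyme counts within a library does not depend on how libraries are scaled. Each of 7 ratios was tested in 5 pairwise comparisons by an exact two-sided permutation of 6 against 6 (smallest possible p 0.00216), with Benjamini-Hochberg adjustment over a family of 45 tests. Of these 35 tests 10 passed: 3 of 7 for diabetes on vehicle, 3 of 7 for PMX-53 in diabetic mice, 0 of 7 for the inhibitor in non-diabetic mice, and 2 of 7 in each of the 2 comparisons without the diabetic vehicle libraries. The log2 ratio of Aldoc over Aldoa was -5.46 ± 0.22 in the diabetic vehicle group and -7.11 ± 0.29 in the non-diabetic vehicle group, a difference of 1.65 (SD, n = 6 each, exact permutation p = 0.00216, adjusted p = 0.00974). With PMX-53 it was -6.70 ± 0.21 in the diabetic PMX-53 group, a difference of -1.24 to diabetic vehicle (exact p = 0.00216, adjusted p = 0.00974). Aldoc therefore moved further than Aldoa in both comparisons. Pfkl over Pfkm, the muscle-type phosphofructokinase, was -0.12 ± 0.10 in the diabetic PMX-53 group and 0.33 ± 0.16 in the diabetic vehicle group, a difference of -0.44 (exact permutation p = 0.00216, adjusted p = 0.00974).

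Hk1 over Hk2 was 7.48 ± 0.21 in the diabetic vehicle group and 6.19 ± 0.61 in the non-diabetic vehicle group, a difference of 1.29 (log2, exact permutation p = 0.00216, adjusted p = 0.00974). In the diabetic PMX-53 group the ratio was 6.10 ± 0.10, a difference of -1.38 to diabetic vehicle (exact p = 0.00216, adjusted p = 0.00974). The 6 diabetic vehicle libraries had the 6 highest values of the 24. Pkm over Pklr, where Pklr is the liver and red cell pyruvate kinase, was 1.92 ± 0.40 in the diabetic vehicle group and 1.77 ± 0.21 in the non-diabetic vehicle group (difference 0.15, exact permutation p = 0.4221, adjusted p = 0.475). In the diabetic PMX-53 group Pkm over Pklr was 2.24 ± 0.25, a difference of 0.46 to the non-diabetic vehicle group (exact permutation p = 0.0130, adjusted p = 0.0365), which lost its call when any of 7 of the 12 libraries was left out, at adjusted p up to 0.0609. Ldha over Ldhb was -1.01 ± 0.19 in the diabetic vehicle group and -0.73 ± 0.13 in the non-diabetic vehicle group (difference -0.28, exact p = 0.0173, adjusted p = 0.0433), and -1.12 ± 0.09 in the diabetic PMX-53 group and -0.82 ± 0.02 in the non-diabetic PMX-53 group (difference -0.30, exact p = 0.00216, adjusted p = 0.00974). The diabetes on vehicle result of Ldha over Ldhb lost its call when any of 10 of the 12 libraries was left out, at adjusted p up to 0.0820.

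**Figure D4:**
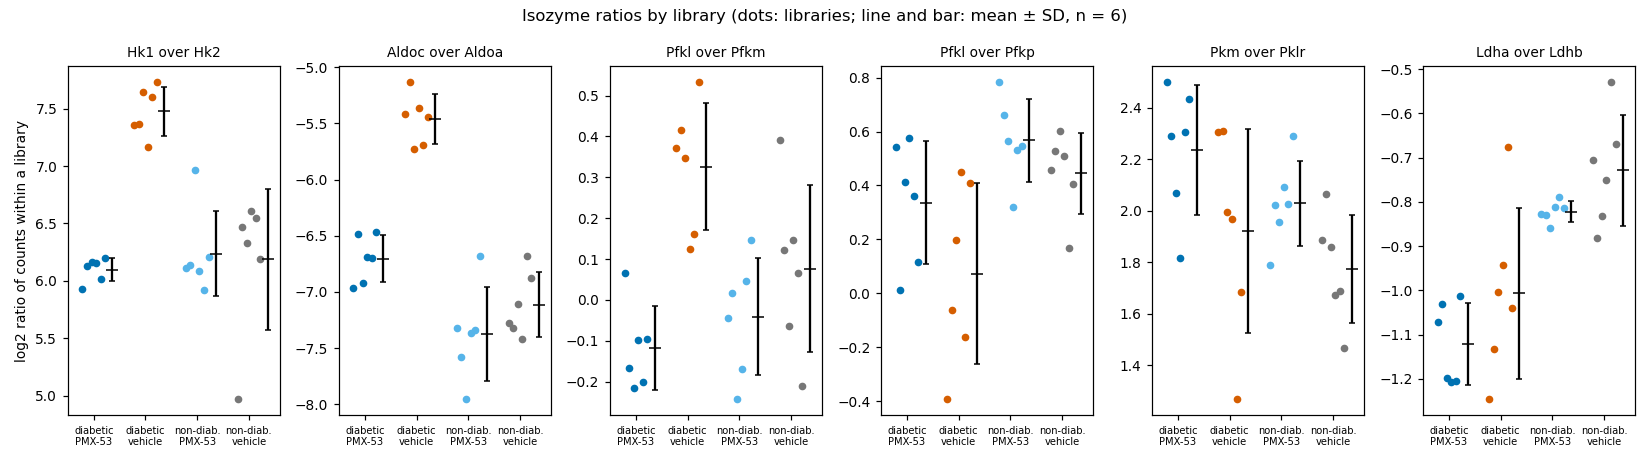
Log2 ratio of the counts of 2 isozyme genes within each library (dots) with mean ± SD (line and bar, n = 6) in the diabetic PMX-53, diabetic vehicle, non-diabetic PMX-53 and non-diabetic vehicle groups; each panel has its own axis, not from 0. Hk1 over Hk2 and Aldoc over Aldoa are highest in the diabetic vehicle libraries, with means of 7.48 and -5.46.

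Other genes of the pathway and genes related by name were taken from a list of 17, all of which passed the filter. Ldhd and Pgam5 are on it by name and are not steps of glycolysis, but they enter the counts and medians below. In diabetic mice on vehicle 8 of the 17 rose and 2 fell, where 20.4% of all tested genes rose and 19.9% fell. Pklr rose by 0.96 ± 0.12 on the log2 scale (SE, adjusted p = 9.47e-07) and Pfkp, the platelet-type phosphofructokinase, by 0.91 ± 0.13 (adjusted p = 6.56e-06). The other risers were Eno2 (0.60), Pgam1 (0.41), Eno3 (0.40), Gapdh (0.40), Pfkm (0.25) and Ldhb (0.20). Ldhd, which acts on D-lactate in mitochondria, fell by 1.51 ± 0.15 (SE, adjusted p = 5.12e-08), and Bpgm, which makes 2,3-bisphosphoglycerate in red cells, fell by 0.26 ± 0.09 (adjusted p = 0.0216). The 7 that did not pass were Hk3 (-0.61), Adpgk (-0.10), Pgam5 (-0.05), Minpp1 (0.09), Tpi1 (0.12), Pgam2 (0.19) and Hkdc1 (0.28). The list's median log2 fold change was 0.20, against -0.0014 over all genes.

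With PMX-53 in diabetic mice, 6 of the 17 fell and 2 rose, where 13.5% of all tested genes fell and 13.9% rose. Pklr fell by 0.90 ± 0.12 on the log2 scale (SE, adjusted p = 9.17e-06) and Pfkp by 0.62 ± 0.13 (adjusted p = 0.00092). Eno2 (-0.80), Eno3 (-0.40), Gapdh (-0.29) and Pgam1 (-0.29) fell as well. Ldhd rose by 0.81 ± 0.15 (SE, adjusted p = 0.000267) and Pgam2, the muscle phosphoglycerate mutase, by 0.41 ± 0.10 (adjusted p = 0.00199). The other 9 lay between -0.07 (Tpi1) and 0.45 (Hk3), with Pgam5 at -0.02, Hkdc1 at 0.02, Ldhb at 0.03, Adpgk at 0.03, Minpp1 at 0.06, Pfkm at 0.11 and Bpgm at 0.13. The list's median log2 fold change was 0.02, against 0.0033 over all genes. In libraries, Pklr held 26.3, 31.1 and 35.7 CPM (lowest, median, highest) in the diabetic PMX-53 group, 43.7, 53.3 and 85.6 CPM in the diabetic vehicle group, 24.4, 26.7 and 28.8 CPM in the non-diabetic PMX-53 group and 27.3, 28.7 and 33.1 CPM in the non-diabetic vehicle group. The diabetic vehicle libraries again lay above all others. In the comparisons without the diabetic vehicle group, 2 of the 17 rose and 1 fell for diabetes on PMX-53, where 5.52% of all genes rose and 4.52% fell. Diabetes with PMX-53 against neither had 4 that rose and 1 that fell, where 7.98% of all genes rose and 6.97% fell.

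**Figure D5:**
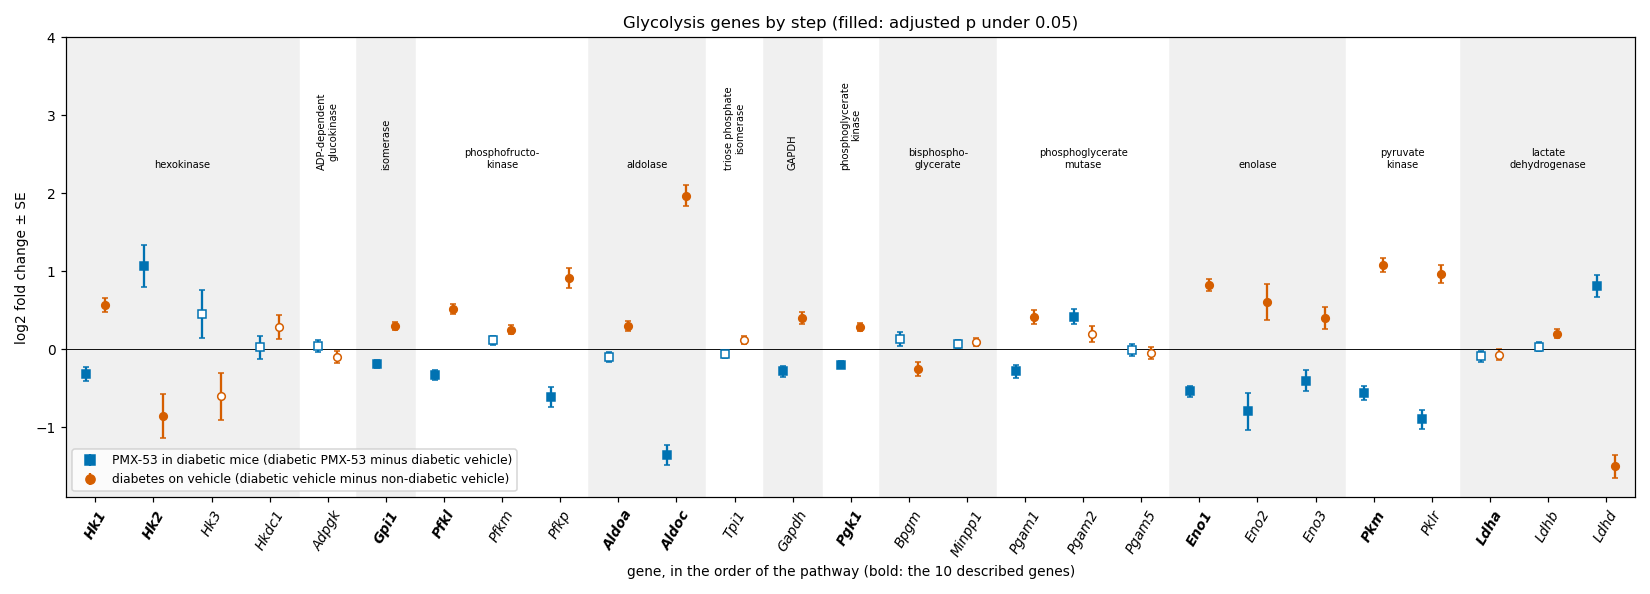
Log2 fold change ± SE (points and bars) of 27 glycolysis and related genes in pathway order. Squares, left of each pair, are PMX-53 in diabetic mice and circles are diabetes on vehicle. Filled points passed at an adjusted p under 0.05, and the 10 described genes are in bold. Pgam5 and Ldhd are placed by name and are not steps of glycolysis. Hk2 and Ldhd lie below 0 for diabetes on vehicle (-0.86 and -1.51) and above 0 for PMX-53 in diabetic mice (1.06 and 0.81), opposite to Aldoc, Pkm and Eno1.

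Of 25 tested regulators and carriers of glucose, pyruvate and lactate, 9 rose and 4 fell in diabetic mice on vehicle, beside 20.4% and 19.9% of all genes. Pdk1, a kinase that switches off pyruvate dehydrogenase, rose by 1.03 ± 0.11 on the log2 scale (SE, adjusted p = 1.38e-07), and Slc2a2, the glucose transporter GLUT2, by 0.54 ± 0.10 (adjusted p = 0.000167). Pdp2, a phosphatase that switches pyruvate dehydrogenase on, fell by 0.61 ± 0.12 (SE, adjusted p = 0.000191) and Mlxipl, the glucose-responsive transcription factor ChREBP, by 0.43 ± 0.07 (adjusted p = 1.41e-05). Under PMX-53 in diabetic mice 3 rose and 6 fell, beside 13.9% and 13.5% of all genes. Pdp2 rose by 0.86 ± 0.12 (SE, adjusted p = 1.14e-05), while Pdk1 fell by 0.73 ± 0.11 (adjusted p = 3.7e-05), Pdk4 by 2.32 ± 0.57 (adjusted p = 0.00511) and Pdp1 by 0.51 ± 0.13 (adjusted p = 0.00512). Without the diabetic vehicle group, 4 of the 25 rose and 0 fell for diabetes on PMX-53 (5.52% and 4.52% of all genes), and 3 rose and 2 fell against neither (7.98% and 6.97%).

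Of the 7 gluconeogenesis genes, all tested, 5 rose and 1 fell in diabetic mice on vehicle (20.4% and 19.9% of all genes), and 5 fell and 0 rose with PMX-53 in diabetic mice (13.5% and 13.9%). Pck1, the cytosolic enzyme that makes phosphoenolpyruvate, rose by 1.06 ± 0.23 on the log2 scale with diabetes on vehicle (SE, adjusted p = 0.00104), and under PMX-53 in diabetic mice it fell by 1.65 ± 0.24 (adjusted p = 3.62e-05). The fructose bisphosphatases Fbp2 and Fbp1 and the glucose 6-phosphate transporter Slc37a4 rose by 1.29, 0.36 and 0.29 with diabetes on vehicle and fell by 0.66, 0.33 and 0.39 with PMX-53 in diabetic mice. Of the 7 genes, 2 rose and 0 fell for diabetes on PMX-53 (5.52% and 4.52% of all genes), and 2 rose and 1 fell against neither (7.98% and 6.97%).

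Of 16 tested hypoxia response genes, in diabetic mice on vehicle 6 rose and 4 fell (20.4% and 19.9% of all genes). Pdk1, given above, and Adm, a vasodilator peptide (0.59 ± 0.12, SE, adjusted p = 0.000261), rose. Vegfa, the endothelial growth factor, fell by 0.63 ± 0.06 (SE, adjusted p = 8.58e-09), and Egln1, an oxygen-sensing prolyl hydroxylase, fell by 0.41 ± 0.05 (adjusted p = 3.49e-07). Under PMX-53 in diabetic mice 2 rose and 6 fell (13.9% and 13.5% of all genes), among them Egln1 (0.36 ± 0.05, SE, adjusted p = 6.42e-06), Egln3 (-0.84 ± 0.16, adjusted p = 0.000409) and Bnip3 (-0.41 ± 0.08, adjusted p = 0.000565). For diabetes on PMX-53 3 of the 16 rose and 2 fell (5.52% and 4.52% of all genes), and against neither 0 rose and 3 fell (7.98% and 6.97%).

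Marker genes of cell types were counted in the same comparisons, and their part in the results above was not tested. Slc4a1 is on both the intercalated cell and red blood cell lists, and Pvalb on both the distal tubule and skeletal muscle lists. Of all genes tested, 20.4% rose and 19.9% fell with diabetes on vehicle. With PMX-53 in diabetic mice, 13.9% of all genes rose and 13.5% fell. In diabetic mice on vehicle, all 8 principal cell markers and 6 of 9 intercalated cell markers rose, 4 of 7 proximal tubule S3 markers fell and 1 rose, and 7 of 10 tubular injury markers rose, while of the 7 red blood cell markers 6 fell and 1 rose. Principal cell markers summed to 253 to 343 CPM in the diabetic PMX-53 libraries, 264 to 428 CPM in the diabetic vehicle libraries, 202 to 321 CPM in the non-diabetic PMX-53 libraries and 151 to 206 CPM in the non-diabetic vehicle libraries. The summed S3 markers were at 1969 to 2527 CPM in the diabetic PMX-53 libraries, 986 to 2633 CPM in the diabetic vehicle libraries, 3186 to 4228 CPM in the non-diabetic PMX-53 libraries and 3500.1 to 4028 CPM in the non-diabetic vehicle libraries. Injury markers summed to 805 to 1183 CPM in the diabetic PMX-53 libraries, 767 to 2867 CPM in the diabetic vehicle libraries, 458 to 672 CPM in the non-diabetic PMX-53 libraries and 392 to 685 CPM in the non-diabetic vehicle libraries. With PMX-53 in diabetic mice 5 of the 10 injury markers and 2 of the 8 principal cell markers fell, while 4 of the 7 S3 markers rose and 2 fell.

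Podocyte markers did not pass with diabetes on vehicle, and 6 of 8 rose with PMX-53 in diabetic mice. For the counts here, the shares of all genes were again 20.4% higher and 19.9% lower for diabetes on vehicle. They were 13.9% higher and 13.5% lower for PMX-53 in diabetic mice. They summed to 406 to 510.4 CPM in the diabetic PMX-53 libraries, 307 to 345 CPM in the diabetic vehicle libraries, 354 to 426 CPM in the non-diabetic PMX-53 libraries and 316 to 356 CPM in the non-diabetic vehicle libraries. Red blood cell markers, of which 6 rose with PMX-53 in diabetic mice, summed to 391 to 607 CPM in the diabetic PMX-53 libraries, 141 to 418 CPM in the diabetic vehicle libraries, 327 to 862 CPM in the non-diabetic PMX-53 libraries and 324 to 615 CPM in the non-diabetic vehicle libraries. Of the intercalated cell markers 3 of 9 rose with PMX-53 in diabetic mice, and they summed to 316 to 383 CPM in the diabetic PMX-53 libraries, 274 to 328 CPM in the diabetic vehicle libraries, 265 to 294 CPM in the non-diabetic PMX-53 libraries and 192 to 267 CPM in the non-diabetic vehicle libraries. With diabetes on vehicle, 4 rose and 4 fell of 9 S1-S2 markers, 3 rose and 2 fell of 7 thick ascending limb markers, 4 rose of 7 distal tubule markers, 2 rose of 5 medulla markers, 1 rose and 3 fell of 8 endothelial markers, 1 fell of 9 macrophage markers, 0 passed of 4 T cell markers and 4 fell of 6 B and plasma cell markers. With PMX-53 in diabetic mice, 3 rose and 1 fell of the S1-S2 markers, 2 fell of the thick ascending limb markers, 3 rose of the distal tubule markers, 3 fell of the medulla markers, 4 rose of the endothelial markers, 1 fell of the macrophage markers, 2 rose of the T cell markers and 5 rose of the B and plasma cell markers.

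Muscle and fat also express several of these enzymes. Beside the counts that follow, 20.4% of all genes rose and 19.9% fell with diabetes on vehicle. With PMX-53 in diabetic mice the shares were 13.9% and 13.5%. Of the 7 skeletal muscle markers 2 passed the filter, both of which (Pvalb and Eno3) kidney also expresses and both of which rose with diabetes on vehicle. The 7 summed to 9.82 to 15.8 CPM in the diabetic PMX-53 libraries, 12.2 to 17.5 CPM in the diabetic vehicle libraries, 9.30 to 14.96 CPM in the non-diabetic PMX-53 libraries and 7.98 to 12.4 CPM in the non-diabetic vehicle libraries, with Myh4, a fast muscle myosin, at 0 in all 24. Adipocyte markers summed to 13.8 to 28.9 CPM over all libraries, with Lep, the fat hormone leptin, at 0 in all 24. The single adipocyte marker tested did not pass with diabetes on vehicle and fell with PMX-53 in diabetic mice, as did 1 of the 2 muscle markers. Of 6 tested small and nuclear RNAs taken as a sign of RNA quality, 3 rose with diabetes on vehicle and 4 fell with PMX-53 in diabetic mice. The 7 listed summed to 22738 to 27228 CPM in the diabetic PMX-53 libraries, 25799 to 34046 CPM in the diabetic vehicle libraries, 26844 to 30836 CPM in the non-diabetic PMX-53 libraries and 24726 to 30013 CPM in the non-diabetic vehicle libraries.

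The mean pattern of the 10 genes over the 4 groups (log2 CPM, each gene centred on its own mean) was 0.05 in the diabetic PMX-53 group, 0.32 in the diabetic vehicle group, -0.18 in the non-diabetic PMX-53 group and -0.18 in the non-diabetic vehicle group. Pfkl and Hk1 lay nearest to it among the 10, at root mean square differences of 0.029 each over the 4 group means, and Aldoc (0.62) and Hk2 (0.50) lay farthest. Among other genes that averaged 3 or more on the log2 CPM scale, the nearest were Bag4 (0.014), Rps2 (0.014), Rdh11 (0.017), Slc5a11 (0.018), Mospd1 (0.018) and Hip1r (0.021).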

How the data were processed

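RNA was measured by ribosomal RNA-depleted, directional sequencing from 200 ng of total RNA, per the labels' protocols. The deposited values are raw gene counts for 24 libraries. Reads were demultiplexed with bcl2fastq 2.20.0.422 and aligned with STAR to GRCm38, per the submitters' processing notes. For the counter, its strand setting, the annotation and the STAR version, nothing is given in the sources used here.

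Groups came from the labels. The 10 genes, the gene lists and the tests were chosen with earlier results of these data known, and Nnt, Ide, Wdfy1, C3 and Kap were named after their values were seen. Genes passed edgeR's filterByExpr (15808 of 48526), were scaled by TMM and were fitted over all 4 groups with edgeR 4.0.16 (R 4.3.3), robust quasi-likelihood, with Benjamini-Hochberg adjustment over all genes tested and a threshold of 0.05. SE is the absolute log2 fold change over the square root of F. The script was tested on simulated data. Isozyme ratios used counts plus 0.5. Results for some related genes, and ratios that need them, are not reported here. Exon lengths, positions and overlaps are from GENCODE M21, which holds 48058 of the gene IDs. Named list genes were the 4 with the smallest p in each list, and all tested genes of the other glycolysis list. The patterns nearest to the mean of the 10 were taken from the group means of log2 CPM.

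The 60 within-group library pairs held no identical pair (chi-square per degree of freedom at least 5.65). The alternatives tried were median-of-ratios scaling, library totals alone, other filters, DESeq2 1.42.0, limma 3.58.1 voom with quality weights, a replicate block, the compared groups alone, omission of mitochondrial and ribosomal RNA genes and of each library, and other ratio pseudocounts. Precision is limited by depth for Hk2, whose counts cover 6 to 33 a library.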

Additional observations from a re-analysis of the deposited data

Results flagged for a closer look

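In 3 of 40 groups of 6 libraries (10 genes in 4 groups), 1 library lay far from the other 5, by a gap above Dixon's 95% critical share of the group's range. Chance gives this in about 1 in 20 groups. Hk2 was at 0.463 CPM in non-diabetic PMX-53 replicate 3 and at 1.99 CPM in non-diabetic vehicle replicate 1, and Pgk1 was at 97.8 CPM in non-diabetic vehicle replicate 4.

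The effect of PMX-53 differed between diabetic and non-diabetic mice by the interaction term for 4 genes: Aldoc (log2 difference of effects -1.20), Pkm (-0.67), Eno1 (-0.54) and Pfkl (-0.36), each with edgeR's quasi-likelihood test at an adjusted p of 0.0124 or lower. These values rest on the diabetic vehicle libraries, which stood apart in Nnt, Ide and Wdfy1, and a different source of those mice cannot be told apart from their diabetes or treatment.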

How the results depend on the processing

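No fold change of the 10 genes that passed reversed its sign under any alternative run. With library totals as the scaling, 5 of the 10 genes passed for PMX-53 in diabetic mice in place of 8. Of all genes, 4510 then passed in that comparison in place of 4317, with 3586 higher and 924 lower. Under the same scaling 871 of all genes passed for diabetes on PMX-53 and 1492 for diabetes with PMX-53 against neither. The share of called genes that were higher was then 31.2% in place of 50.7% for diabetes on vehicle, 79.5% in place of 50.7% for PMX-53 in diabetic mice, 65.7% in place of 54.9% for diabetes on PMX-53, 64.7% in place of 53.4% against neither and 79.3% in place of 49.5% for the interaction. With limma voom weights 2626 genes and 5 of the 10 passed for diabetes on PMX-53, and 2281 genes and 7 of the 10 for the interaction. Without a filter 1 gene passed for the inhibitor in non-diabetic mice. The causes were not tested.

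Leaving out 1 library at a time gave 5729 to 6796 genes for diabetes on vehicle, 3507 to 4841 for PMX-53 in diabetic mice, 0 for PMX-53 in non-diabetic mice, 1134 to 1544 for diabetes on PMX-53, 1873 to 2261 against neither and 1022 to 2242 for the interaction, the last highest without diabetic vehicle replicate 4. Of the 10 genes, 8 to 9, 8, 0, 2 to 4, 3 to 6 and 4 to 6 passed in these comparisons, and 12 to 19 of the 45 ratio tests, against 18 with all libraries.

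Replicate numbers did not pair the libraries: 3 of 36 same-numbered pairs correlated above 0.1 and 0 of 24 libraries correlated best with their own number. With the replicate block 6221, 4136, 0, 1483, 2280 and 1344 genes passed in the same order of comparisons, and 9, 8, 0, 3, 3 and 5 of the 10; Aldoa lost its call against neither (adjusted p = 0.052) and Hk1 gained one in the interaction (adjusted p = 0.0497). Hk2 is limited by its counts.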
